A study of Mus musculus with 8 samples.

Results

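The glucocorticoid receptor gene Nr3c1 and 4 genes it is known to induce, Fkbp5, Tsc22d3, Klf9 and Per1, were followed in mouse lung macrophages with and without tumors. The 5 genes were chosen by symbol, with the results of these data known, and all 5 were among the 12701 genes of the deposited table. RNA was sequenced from tissue-resident macrophages of the lung, the alveolar macrophages that live in the airspaces, sorted by flow cytometry from C57BL/6 mice. In the d15 group (2 libraries) and the d35 group (3 libraries), the mice had received an injection of KP or KP-GFP cells, tumor cells of mouse lung, by the tail vein, and the lungs were taken at the labelled day, 15 or 35. The naive group (3 libraries) came from wild type mice without tumors. The growth protocol gives a harvest window that closes before the later labelled day, so the time of the d35 group is uncertain. Age, sex, the hour of harvest, the markers used for sorting and the number of animals behind the libraries are not stated in the labels, so the spread between libraries may be partly technical. The numbers of the d15 columns differ as a set from those of the d15 sample titles, so the columns are called replicate A and replicate B here.

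Glucocorticoids are steroid hormones of the adrenal gland whose blood level follows the time of day and rises with stress. The receptor, NR3C1, waits in the cytoplasm in a complex with heat-shock proteins, moves to the nucleus when it binds hormone, and there binds palindromic DNA elements near the genes it induces or lowers inflammatory genes through other factors. In macrophages it is known for restraining cytokine production. FKBP5 is a co-chaperone that lowers the receptor's affinity for hormone and so closes a feedback loop. TSC22D3, also called GILZ, is a leucine zipper protein that carries part of the anti-inflammatory action. KLF9 is a zinc finger transcription factor, and PER1 is a period protein of the circadian clock whose gene responds both to the clock and to glucocorticoids. None of these genes reports on hormone alone, and neither hormone nor receptor protein was measured.

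Levels are given as scaled CPM, the deposited value of a gene in a library, which is a read count divided by a scaled library size. Each library held between 27465745 and 39572173 reads in the table. As a check on the cell type, the summed level of 15 alveolar macrophage markers was 43150 and 46906 scaled CPM in the d15 libraries, 45317 to 59284 in the d35 libraries and 34935 to 40988 in the naive libraries. The chitinase-like gene Chil3, the most abundant of these markers, averaged 28404 ± 3403 scaled CPM at d15 (SD, n = 2), 33501 ± 7594 at d35 (n = 3) and 22080 ± 3905 in naive macrophages (n = 3). Chil3 thus made up most of the summed level in the group means. In the limma fit used below (adjusted p under 0.05), 2 of the 15 markers were higher and 1 lower at d15 than in naive macrophages. At d35 4 were higher and 1 lower. Of all genes tested, 2.37% and 2.00% were higher and lower at d15, and 9.86% and 6.32% at d35. A pair of libraries stood apart in heat-shock RNA, judged on genes chosen after their values were seen. The summed level of Hspa1a and Hspa1b, near-identical copies that encode stress-induced HSP70 and may share reads, was 105 scaled CPM in d35 replicate 3 and 108 in naive replicate 1, while it was 13.0 and 11.9 in the d15 libraries, 14.8 and 28.2 in the other d35 libraries and 3.16 and 4.06 in the other naive libraries. Naive replicate 1 also had the lowest summed level of 19 immediate-early genes in its group, at 3475 scaled CPM against 7940 and 7417 in naive replicates 2 and 3. Differences without one of these libraries are given for Fkbp5, Per1 and Tsc22d3.

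The promoter sequences of the target genes are shown because the receptor, the clock and stress signals act through short motifs that can be read in them. RefSeq start sites on GRCm38.p6 (mm10) gave 7 windows of 300 bases, from 250 bases before to 50 bases after a start site, for the 4 target genes. One window per gene is printed below, 5′ to 3′ on the gene's strand, with motif matches in capitals. The windows are Fkbp5 on the minus strand at chr17:28486100-28486399, Klf9 on the plus strand at chr19:23140976-23141275, Per1 on the plus strand at chr11:69098699-69098998 and Tsc22d3 on the minus strand at chrX:140600473-140600772.
Fkbp5: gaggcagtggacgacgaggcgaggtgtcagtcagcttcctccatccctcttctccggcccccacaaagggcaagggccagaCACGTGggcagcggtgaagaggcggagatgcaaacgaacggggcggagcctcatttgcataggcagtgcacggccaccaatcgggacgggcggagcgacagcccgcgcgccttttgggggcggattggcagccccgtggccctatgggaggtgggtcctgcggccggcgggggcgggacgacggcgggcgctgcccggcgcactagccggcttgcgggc
Klf9: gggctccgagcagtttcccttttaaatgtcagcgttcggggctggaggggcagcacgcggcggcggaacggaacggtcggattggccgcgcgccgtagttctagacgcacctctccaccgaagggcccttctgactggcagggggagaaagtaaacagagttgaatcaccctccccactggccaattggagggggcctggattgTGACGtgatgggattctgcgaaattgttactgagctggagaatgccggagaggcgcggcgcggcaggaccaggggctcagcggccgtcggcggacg
Per1: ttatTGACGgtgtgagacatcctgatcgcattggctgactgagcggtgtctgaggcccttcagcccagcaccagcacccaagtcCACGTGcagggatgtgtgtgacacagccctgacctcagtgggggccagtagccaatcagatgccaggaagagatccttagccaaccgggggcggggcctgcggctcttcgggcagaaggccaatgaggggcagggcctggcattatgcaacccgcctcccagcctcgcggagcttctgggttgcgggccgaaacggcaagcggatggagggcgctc
Tsc22d3: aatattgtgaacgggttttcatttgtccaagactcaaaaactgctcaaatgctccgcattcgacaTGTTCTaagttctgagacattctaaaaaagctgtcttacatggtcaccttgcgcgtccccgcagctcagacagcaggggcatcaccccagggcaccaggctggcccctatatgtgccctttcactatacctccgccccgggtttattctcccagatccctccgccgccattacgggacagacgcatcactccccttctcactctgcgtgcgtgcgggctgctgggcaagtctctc

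Both strands of each window were searched for the receptor element (AGAACA, any 3 bases, then TGTTCT), its core ACANNNTGT and one arm of it, AGAACA, for the E-box CACGTG bound by clock proteins, for the cyclic AMP response element TGACGTCA and its part TGACG, and for the D-box TTATGTAA bound by DBP and TEF. A core and the arm AGAACA lie within every full receptor element, and TGACG lies within every full cyclic AMP element. The capitals mark an E-box at bases 82 to 87 of the Fkbp5 window and at bases 85 to 90 of the Per1 window. They mark TGACG at bases 205 to 209 of the Klf9 window and at bases 5 to 9 of the Per1 window. In the Tsc22d3 window they mark the arm at bases 66 to 71, read as TGTTCT because it lies on the other strand. Of the windows not printed, a second Per1 window held TGACG, one Tsc22d3 window held TGACG and the other held none of the motifs. The printed windows are thus the only ones of Per1 with an E-box and of Tsc22d3 with the arm. Among all 32851 promoter windows of the RefSeq table, 7.15% held the E-box, 20.8% held TGACG and 19.0% held the arm AGAACA. With any window of a gene counted, 8.09% of 27025 genes held the E-box, 23.0% held TGACG and 21.3% held the arm. The full element occurred in 3 windows of the table (0.00913%), the core in 6.85%, the full cyclic AMP element in 1.79% and the D-box in 0.938%, and none of these was in a window of the 4 genes. A match is only a string of letters, and receptor elements known for these genes can lie far outside such windows.

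The level of the receptor gene itself overlapped between d15 and naive macrophages. Nr3c1 had 178.5 and 190.0 scaled CPM in the d15 libraries, 137.7, 169.9 and 154.8 in the d35 libraries, and 187.6, 169.0 and 186.9 in the naive libraries. Both d15 libraries lay within or just above the naive range, d35 replicate 2 lay just above the lowest naive library, and all 3 d35 libraries lay below both d15 libraries. The log2 difference was 0.03 for d15 minus naive (SE 0.095), -0.24 for d35 minus naive (SE 0.085) and -0.26 for d35 minus d15 (SE 0.095). These log2 differences are on the log2(scaled CPM + 1) scale, with the SE of a limma fit over all 11273 genes tested. As the genes were picked with these contrasts known, no test is given for any of the 5. The sign of the small d15 difference turned under other settings, which gave -0.04 to 0.10.

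**Figure D1:**
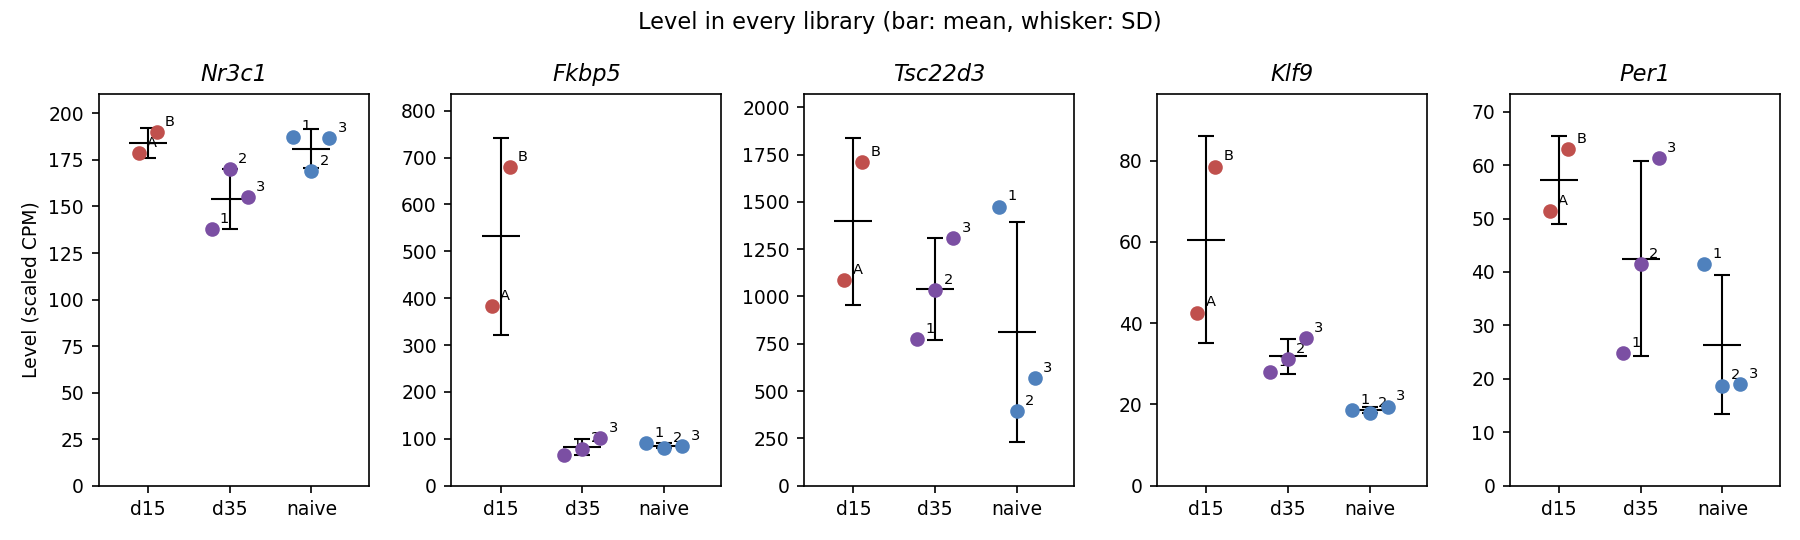
Level of the receptor gene Nr3c1 and the 4 target genes in every library, in scaled CPM on axes that start at 0. Points are libraries labelled by replicate, the bar is the group mean and the whisker the SD (n = 2 for d15, n = 3 for d35 and naive). Fkbp5 was high in both d15 libraries only, at 383.8 and 679.7 scaled CPM, while Tsc22d3 and Per1 spread widely within the naive group.

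Fkbp5 showed the widest separation of the 5 genes. It had 383.8 and 679.7 scaled CPM in the d15 libraries, 66.1, 79.2 and 101.0 in the d35 libraries, and 91.1, 80.3 and 83.6 in the naive libraries. Both d15 libraries lay far above every other library, and the d35 and naive ranges overlapped. The d15 mean of 532 ± 209 scaled CPM (SD, n = 2) was 6.26 times the naive mean of 85.0 ± 5.5 (n = 3), and the d35 mean was 82.1 ± 17.6 (n = 3). The log2 difference was 2.57 for d15 minus naive (SE 0.21), -0.07 for d35 minus naive (SE 0.19) and -2.64 for d35 minus d15 (SE 0.21). The small d35 minus naive difference had no steady sign, at -0.23 without d35 replicate 3 and 0.07 without d35 replicate 1. The size of the d15 difference depended on which of its 2 libraries was kept, with 2.99 for replicate B alone and 2.16 for replicate A alone.

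Klf9 was the only one of the 5 genes whose levels at both tumor times lay above all naive libraries. It had 42.6 and 78.5 scaled CPM in the d15 libraries, 28.0, 31.1 and 36.3 in the d35 libraries, and 18.6, 17.8 and 19.4 in the naive libraries. The 3 groups did not overlap, with d15 highest and naive lowest. The log2 difference was 1.59 for d15 minus naive (SE 0.21), 0.74 for d35 minus naive (SE 0.18) and -0.85 for d35 minus d15 (SE 0.21). The last of these shrank to -0.42 with d15 replicate A as the only d15 library and grew to -1.29 with replicate B as the only one. The d35 minus naive difference stayed between 0.63 and 0.82 under the other settings.

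Per1 had 51.4 and 63.0 scaled CPM in the d15 libraries, 24.8, 41.4 and 61.3 in the d35 libraries, and 41.4, 18.7 and 19.0 in the naive libraries. Both d15 libraries lay above the naive range, while the d35 libraries ran from near the lower naive libraries to near the higher d15 library. The log2 difference was 1.18 for d15 minus naive (SE 0.37), 0.68 for d35 minus naive (SE 0.33) and -0.50 for d35 minus d15 (SE 0.37). Naive replicate 1, the library with high heat-shock RNA, accounted for the upper end of the naive range. Without it the log2 difference was 1.54 for d15 minus naive and 1.04 for d35 minus naive. Without d35 replicate 3, the other such library, d35 minus naive was 0.37 and d35 minus d15 was -0.81. Without d35 replicate 1 the d35 minus naive difference was 1.01 and d35 minus d15 was -0.17.

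Tsc22d3 was the most abundant of the 5 genes and the least orderly. It had 1084 and 1710 scaled CPM in the d15 libraries, 774, 1035 and 1310 in the d35 libraries, and 1474, 393 and 568 in the naive libraries. The groups overlapped in every comparison, since naive replicate 1 lay above d15 replicate A and above all d35 libraries, while the other naive libraries were the lowest of the 8. The log2 difference was 0.98 for d15 minus naive (SE 0.44), 0.56 for d35 minus naive (SE 0.39) and -0.42 for d35 minus d15 (SE 0.44). Without naive replicate 1 the d15 and d35 differences from naive were 1.53 and 1.10, and without naive replicate 2 they were 0.57 and 0.15. Leaving out d15 replicate B gave 0.65 for d15 minus naive and -0.09 for d35 minus d15, and leaving out d15 replicate A gave 1.31 and -0.75. Without d35 replicate 3 the d35 minus naive difference was 0.37 and d35 minus d15 was -0.61, and without d35 replicate 1 they were 0.75 and -0.23. The part of heat-shock RNA in these values was not tested.

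**Figure D2:**
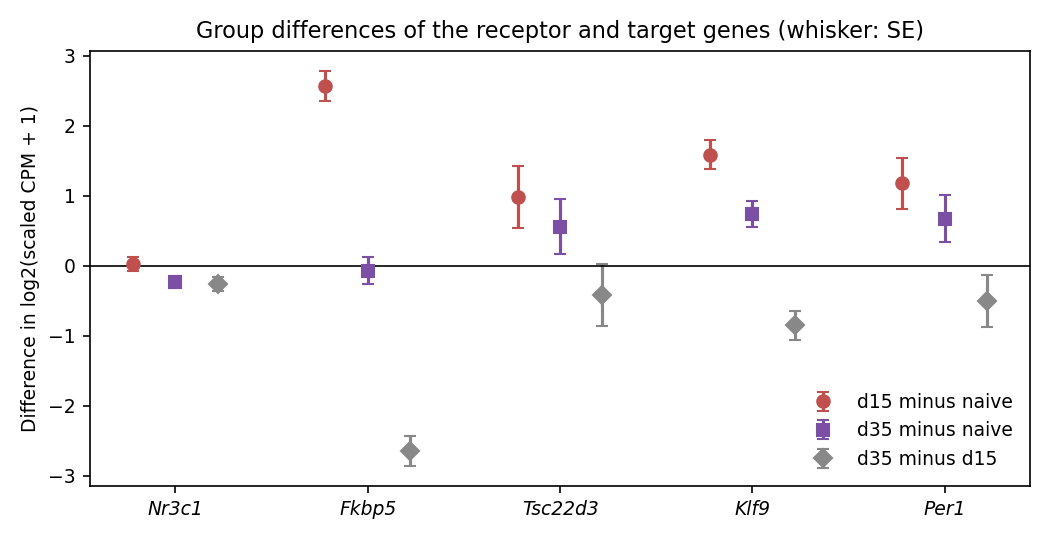
Log2 differences between groups for the 5 genes, on the log2(scaled CPM + 1) scale, with the standard error of the limma fit as whiskers. For Fkbp5 the difference was 2.57 for d15 minus naive, -0.07 for d35 minus naive and -2.64 for d35 minus d15, whereas for Klf9 d35 minus naive was 0.74.

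Set against all genes, 3 of the 5 genes were higher at d15 than in naive macrophages with no overlap between groups and none lower, beside 25.9% of all genes tested that were higher and 22.3% that were lower in this way. In d35 against naive macrophages 1 of the 5, Klf9, was higher with no overlap and none lower, beside 20.7% and 15.9% of all genes. In d35 against d15 macrophages 3 of the 5 (Nr3c1, Fkbp5 and Klf9) were lower with no overlap and none higher, beside 19.5% lower and 19.0% higher of all genes. With so few libraries such separations are common, and as the 5 genes were picked for these contrasts nothing is read from the counts. All comparisons share libraries and are not independent of one another. In the authors' deposited table, which compares d15 with naive over 10778 genes, the log2 fold change was 2.63 for Fkbp5, 1.68 for Klf9, 1.09 for Per1, 0.77 for Tsc22d3 and 0.0049 for Nr3c1. In these sorted bulk samples, fewer cells with the RNA and less RNA per cell cannot be told apart.

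Corrected for the summed length of a gene's exons, mean levels can be set against each other, in scaled CPM per kilobase. At d15 the order was Tsc22d3 at 322, Fkbp5 at 56.2, Nr3c1 at 24.0, Klf9 at 12.6 and Per1 at 10.2. At d35 it was Tsc22d3 at 239, Nr3c1 at 20.1, Fkbp5 at 8.67, Per1 at 7.55 and Klf9 at 6.6. In naive macrophages it was Tsc22d3 at 187, Nr3c1 at 23.6, Fkbp5 at 8.98, Per1 at 4.69 and Klf9 at 3.86. Tsc22d3 headed the order in all 3 groups, and Fkbp5 stood above its receptor gene at d15 alone. Klf9 and Per1 did not differ beyond their spread in any group, at 12.6 ± 5.3 and 10.2 ± 1.5 at d15, 6.6 ± 0.88 and 7.55 ± 3.25 at d35, and 3.86 ± 0.17 and 4.69 ± 2.32 in naive macrophages (SD). At d35 Fkbp5, at 8.67 ± 1.86, also lay within the spread of Per1. Exon lengths come from GENCODE M21 and ranged from 4341 bases for Tsc22d3 to 9468 for Fkbp5. In that annotation Fkbp5 lies on chromosome 17 at 28399094 to 28517527, Tsc22d3 on X at 140539528 to 140600659, Klf9 on chromosome 19 at 23141226 to 23168134 and Per1 on chromosome 11 at 69095217 to 69109960, all protein coding.

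Within groups, the 4 target genes tended to be high or low in the same library. Replicate B was the higher d15 library for all 4, and d35 replicate 3 was the highest and d35 replicate 1 the lowest d35 library for all 4. In the naive group replicate 1 was highest for Fkbp5, Tsc22d3 and Per1, and replicate 3 for Klf9. The receptor gene Nr3c1 was also highest in d15 replicate B and in naive replicate 1, and at d35 it was highest in replicate 2. The share of all genes with the same orders was not counted. For Nr3c1 the highest library was 1.06 times the lowest at d15, 1.23 times at d35 and 1.11 times in naive macrophages. Over the 4 target genes these ratios ran from 1.23 (Per1) to 1.84 (Klf9) at d15, from 1.30 (Klf9) to 2.48 (Per1) at d35 and from 1.09 (Klf9) to 3.76 (Tsc22d3) in naive macrophages. The summed immediate-early level followed the same order within the tumor groups, with 6242 and 7537 scaled CPM in d15 replicates A and B and 2753, 3760 and 5554 in d35 replicates 1, 2 and 3, and the reverse in the naive group, where replicate 1 was lowest. Its part in the spread of the target genes was not tested.

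**Figure D3:**
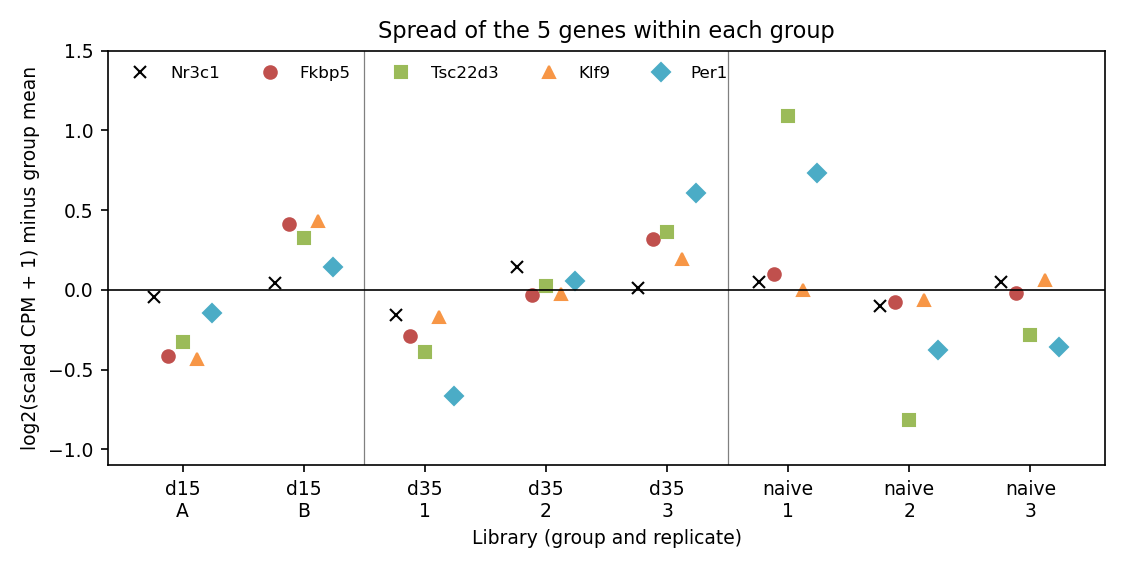
Deviation of each of the 5 genes from its group mean in every library, in log2(scaled CPM + 1). In d15 replicate B and d35 replicate 3 all 4 target genes lie above their group mean, and in naive replicate 1 Tsc22d3 and Per1 stand highest.

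Genes most like each of the 5 were ranked by Pearson's r of log2(scaled CPM + 1) over the 8 libraries, as a description without a test, since the libraries share group and preparation. For Fkbp5 they were Dr1 (r = 0.995), Gca (r = 0.991) and Cdkn2aipnl (r = 0.989), and Gca averaged 144 scaled CPM at d15, 41.4 at d35 and 39.5 in naive macrophages. For Klf9 they were Usp3 (r = 0.987), Guk1 (r = 0.982) and Mrps23 (r = 0.982). For Per1 they were Zfp358 (r = 0.954), Zfp560 (r = 0.953) and Ugcg (r = 0.941), and for Tsc22d3 they were Mknk2 (r = 0.957), Thap11 (r = 0.951) and Ftsj1 (r = 0.941). For Nr3c1 they were R3hdm4 (r = 0.969), Trp53i13 (r = 0.963) and Ampd3 (r = 0.947). No gene appeared in more than one of these groups of 3.

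The rest of the pathway was read from 5 lists that hold 119 other genes, of which 96 were tested. With limma's adjusted p under 0.05, 7 of the 96 changed at d15 against naive macrophages (3 higher, 4 lower, 7.29%), beside 4.37% of all 11273 genes (2.37% higher, 2.00% lower). At d35 against naive 18 changed (11 higher, 7 lower, 18.75%), beside 16.2% of all genes (9.86% higher, 6.32% lower), and at d35 against d15 12 changed (8 higher, 4 lower, 12.5%), beside 7.39% of all genes (4.59% higher, 2.80% lower). The median log2 difference of the 96 was 0.07, 0.04 and 0.02 in these 3 comparisons, beside 0.01, -0.0022 and -0.0026 for all genes. Of all genes called, 54.2%, 61.0% and 62.1% were higher in the 3 comparisons. These shares became 30.1%, 28.7% and 49.5% when values were scaled to the table total, which moved the median of all genes by -0.11 on the log2 scale at d35, and the d35 share became 50.7% with quantile normalization.

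**Figure D4:**
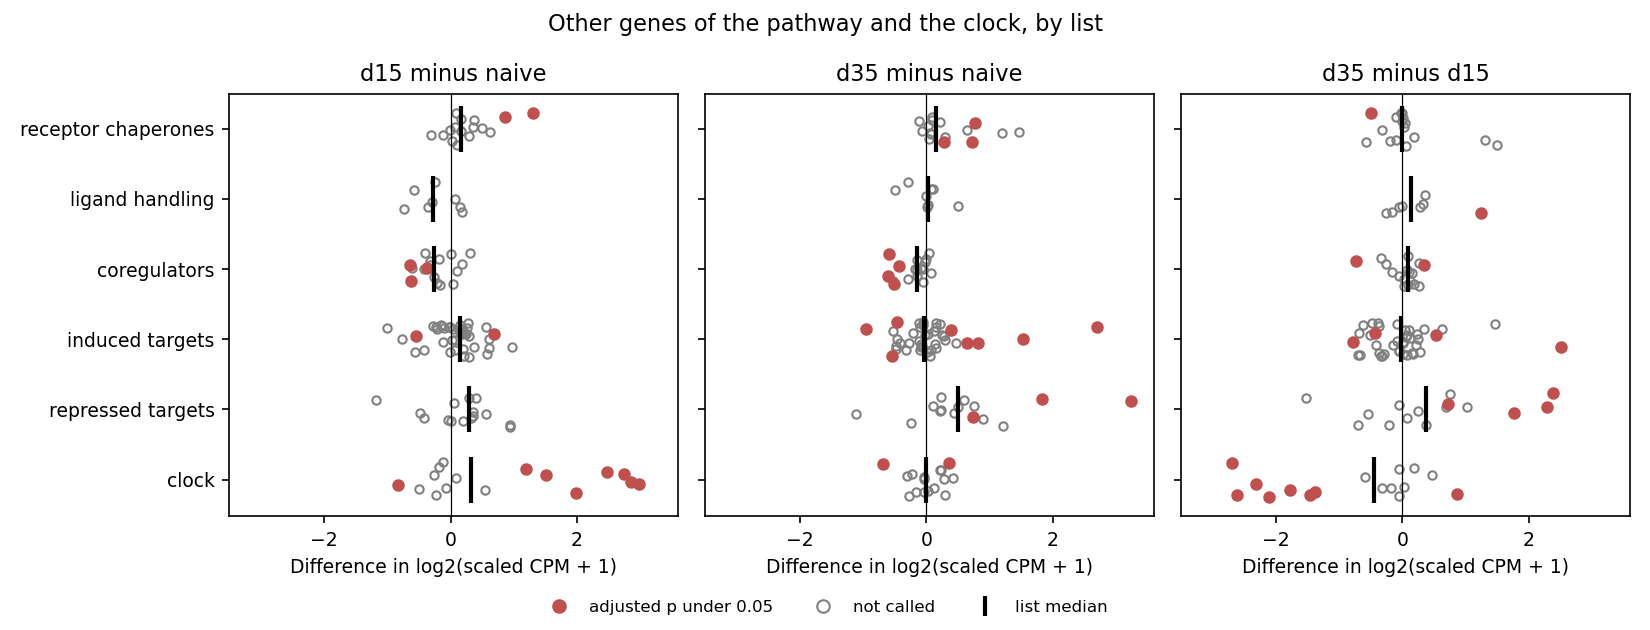
Log2 differences of the other genes of the pathway and of the clock, by list, in the 3 comparisons, on the log2(scaled CPM + 1) scale. Filled points passed limma's adjusted p of 0.05, open points did not, and black bars are list medians. Most pathway genes lie near 0 at d15 against naive. Of 16 clock genes, 7 passed as higher and 1 as lower in that comparison, beside 2.37% and 2.00% of all genes.

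Of 16 tested genes of the receptor's chaperone complex, 2 were higher at d15 than in naive macrophages and none lower, beside 2.37% and 2.00% of all genes, and 3 were higher at d35 and none lower, beside 9.86% and 6.32%. The HSC70 gene Hspa8, whose product delivers the receptor to HSP90, averaged 1672 ± 163 scaled CPM at d15, 1126 ± 159 at d35 and 693 ± 205 in naive macrophages (limma adjusted p = 0.00852 at d15 and 0.0219 at d35). Its HSP40 partner gene Dnaja1 averaged 89.0 ± 0.9, 85.1 ± 23.1 and 48.4 ± 3.8 scaled CPM in the same order (limma adjusted p = 0.0253 at d15 and 0.00993 at d35). Bag1, an HSP70 regulator that can dampen the receptor, was 0.28 higher at d35 on the log2 scale (limma adjusted p = 0.0479), a call that ended without any one of naive replicates 1 to 3, d15 replicates A and B or d35 replicates 1 and 3 (adjusted p = 0.0697 to 0.135). Fkbp4, the co-chaperone that FKBP5 opposes and that favours hormone binding, averaged 247 ± 5 scaled CPM at d15, 176 ± 7 at d35 and 192 ± 25 in naive macrophages. It was 0.49 lower on the log2 scale at d35 than at d15 (limma adjusted p = 0.0155), and its d15 difference from naive of 0.37 did not pass (adjusted p = 0.0579). Without d15 replicate A or B, neither Hspa8 at d15 (adjusted p = 0.0701 and 0.0973) nor Fkbp4 at d35 against d15 (adjusted p = 0.11 and 0.108) passed, and Dnaja1 at d15 did not pass without d15 A or B or naive replicates 2 or 3 (adjusted p = 0.0713 to 0.193). Hspa8 at d35 did not pass without naive replicates 2 or 3 or d35 replicate 3 (adjusted p = 0.0724 to 0.086), while Dnaja1 at d35 passed without any one library. The list medians were 0.16 at d15 and 0.15 at d35 against naive, and -0.01 at d35 against d15.

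Of 8 tested genes listed for handling or binding the hormone, none passed in either comparison with naive macrophages. Of all genes, 4.37% passed at d15 and 16.2% at d35, so this count says little about the list. Hsd11b1, the enzyme gene that regenerates active hormone from its inactive form, averaged 5.72 ± 2.26 scaled CPM at d15, 4.82 ± 0.25 at d35 and 4.88 ± 1.34 in naive macrophages (limma adjusted p = 0.681 at d15 and 0.985 at d35). Nr3c2, the mineralocorticoid receptor gene, whose product also binds glucocorticoids, averaged 2.16 ± 0.40, 2.84 ± 0.60 and 3.75 ± 0.94 scaled CPM in the same order (adjusted p = 0.135 and 0.331). The drug exporter gene Abcb1a, which can pump steroids out of cells, was 1.25 higher on the log2 scale at d35 than at d15 (limma adjusted p = 0.0349), at 4.44 ± 0.91 at d35 and 1.43 ± 1.22 scaled CPM at d15. That call ended without d15 replicate A, naive replicate 3 or d35 replicates 1 or 3 (adjusted p = 0.0516 to 0.273).

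Of 17 receptor coregulator genes, 3 were lower at d15 and 4 were lower at d35 than in naive macrophages, beside 2.00% and 6.32% of all genes, and none was higher in either comparison. The corepressor gene Nrip1 averaged 189 ± 7 scaled CPM at d15, 193 ± 26 at d35 and 296 ± 49 in naive macrophages (limma adjusted p = 0.0315 at d15 and 0.00994 at d35). Ncoa2, which encodes GRIP1, a cofactor of both activation and repression by the receptor, averaged 46.9 ± 2.3 scaled CPM at d15, 38.9 ± 1.4 at d35 and 59 ± 4.9 in naive macrophages, and passed at d35 (limma adjusted p = 0.00223) and not at d15 (adjusted p = 0.0705). Coactivator gene Ncoa1 was lower at d35 than in naive macrophages and lower than at d15, by 0.43 and 0.73 on the log2 scale (limma adjusted p = 0.0213 and 0.00426). Coactivator gene Ncoa3 was 0.37 lower at d15 than in naive macrophages (limma adjusted p = 0.0473) and 0.35 higher at d35 than at d15 (adjusted p = 0.0435). The d35 calls of Nrip1 and Ncoa2 against naive passed without any one library. The d15 calls of Nrip1 and Ncoa3 each ended without d15 replicate A, without d15 replicate B and without naive replicates 2 or 3, and that of Ncoa3 also without naive replicate 1 or d35 replicate 1 (adjusted p = 0.0513 to 0.303). At d35 against naive, Ncoa1 ended without naive replicates 1 or 2 or d35 replicates 1 or 3 (adjusted p = 0.0594 to 0.0797). At d35 against d15, Ncoa1 ended without d15 replicate B (adjusted p = 0.0635) and Ncoa3 without any one library other than d35 replicate 3 (adjusted p = 0.056 to 0.293). The list median was -0.27 at d15 and -0.15 at d35 against naive.

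Of 40 other genes tested that glucocorticoids are known to induce, 1 was higher and 1 lower at d15 than in naive macrophages, near the 2.37% and 2.00% of all genes. At d35 5 were higher and 3 lower, beside 9.86% and 6.32% of all genes, and the list medians were 0.15 at d15 and -0.04 at d35. Dusp1, the phosphatase that switches off stress kinases, had 1599 and 1986 scaled CPM in the d15 libraries, 564, 1357 and 1844 in the d35 libraries, and 1062, 1267 and 1288 in the naive libraries. Both d15 libraries lay above the naive range, and the difference did not pass (limma adjusted p = 0.352 at d15 and 0.862 at d35). Sgk1, a serum- and glucocorticoid-induced kinase gene, had 3138 and 2827 scaled CPM in the d15 libraries, 2173, 2365 and 2822 in the d35 libraries, and 2474, 2378 and 2454 in the naive libraries (limma adjusted p = 0.149 at d15 and 0.991 at d35). Both d15 libraries again lay above the naive range.

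Zbtb16, a zinc finger gene strongly induced by glucocorticoids in several cell types, was too low to pass the filter on low values and was not tested. It had 14 and 107 reads in the d15 libraries, 8, 2 and 6 in the d35 libraries, and 7, 7 and 10 in the naive libraries, and the high value rests on d15 replicate B. Klf15, another known target that was below the filter and was chosen here after its values were seen, had 16 and 30 reads in the d15 libraries, 0 in all 3 d35 libraries, and 5, 7 and 0 in the naive libraries. A count of 0 allows up to 3 reads, or 0.0784 to 0.104 scaled CPM in the d35 libraries, from counting error alone.

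Among the induced genes that passed, the metallothionein genes Mt1 and Mt2 were higher at d35 and the cell surface gene Amigo2 was higher at d15. Mt1 averaged 134 ± 24 scaled CPM at d15, 171 ± 24 at d35 and 109 ± 5 in naive macrophages (limma adjusted p = 0.171 at d15 and 0.0062 at d35), and Mt2 was 0.81 higher at d35 than in naive macrophages on the log2 scale (limma adjusted p = 0.0131). Amigo2 averaged 28.5 ± 2.0 scaled CPM at d15, 16.3 ± 2.2 at d35 and 17.3 ± 2.4 in naive macrophages (limma adjusted p = 0.0301 at d15, and 0.0108 for d35 against d15). Il7r, the interleukin-7 receptor gene, had 1.45 and 1.35 scaled CPM in the d15 libraries, 30.1, 5.89 and 10.9 in the d35 libraries, and 1.66, 1.00 and 0.725 in the naive libraries (limma adjusted p = 0.00363 for d35 against naive). The thioesterase gene Acot1, which has close copies, was lower at both tumor times, by 0.54 at d15 and by 0.47 at d35 on the log2 scale (limma adjusted p = 0.0397 and 0.0195). The G-protein regulator gene Rgs2 and the TGF-beta co-receptor gene Tgfbr3 fell by 0.54 and 0.95 on the log2 scale at d35 against naive (limma adjusted p = 0.00948 and 0.0391). Tnip1, which restrains NF-kB, was 0.53 higher at d35 than at d15 (limma adjusted p = 0.0271). The d35 calls of Mt1, Mt2, Il7r and Rgs2 against naive passed without any one library, and that of Mt2 ended with length correction (adjusted p = 0.155). Amigo2 at d15 ended without d15 replicates A or B or naive replicates 2 or 3 (adjusted p = 0.0753 to 0.191), and against d35 without d15 replicates A or B (adjusted p = 0.098 and 0.0708). Acot1 at d15 ended without any one naive or d15 library (adjusted p = 0.0636 to 0.298) and at d35 without naive replicates 1 or 3 or d35 replicate 3 (adjusted p = 0.0563 to 0.0672). Tgfbr3 ended without any one library other than naive replicate 3 (adjusted p = 0.0519 to 0.118), and Tnip1 without d15 replicates A or B or d35 replicates 1 or 3 (adjusted p = 0.054 to 0.223).

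Of 15 tested inflammatory genes that the receptor is known to lower, none passed at d15 against naive, where 4.37% of all genes did, so this count says little about the list. At d35 3 were higher and none lower than in naive macrophages, beside 9.86% of all genes higher, and 4 were higher and none lower than at d15, beside 4.59%. The list medians were 0.29 for d15 minus naive, 0.51 for d35 minus naive and 0.38 for d35 minus d15. Vcam1, an adhesion molecule gene, averaged 3.32 ± 1.21 scaled CPM at d15, 20.1 ± 5.3 at d35 and 1.2 ± 0.22 in naive macrophages (limma adjusted p = 1.97e-05 for d35 against naive and 0.00047 for d35 against d15). The chemokine gene Ccl4 averaged 1.77 ± 0.04, 9.0 ± 3.63 and 1.67 ± 0.10 scaled CPM in the same order (limma adjusted p = 0.00184 for d35 against naive and 0.00464 for d35 against d15). Il1b, the interleukin-1 beta gene, had 37.1 and 19.9 scaled CPM in the d15 libraries, 199, 79.8 and 200 in the d35 libraries, and 32.8, 98.3 and 78.1 in the naive libraries. It passed for d35 against d15 (limma adjusted p = 0.0144) and not against naive at d15 or d35 (adjusted p = 0.148 and 0.0784). The interferon-regulated factor gene Irf1 was 0.73 higher at d35 than in naive macrophages (limma adjusted p = 0.00569), and the adhesion molecule gene Icam1 was 0.72 higher at d35 than at d15 (limma adjusted p = 0.0149). The calls of Vcam1, Ccl4 and Irf1 passed without any one library, while those of Il1b and Icam1 ended without d15 replicate B (adjusted p = 0.156 and 0.13).

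Markers of other cells moved beside the d35 values. Of 12 monocyte and interstitial macrophage markers, 8 were higher and 1 lower at d35 than in naive macrophages (9.86% higher and 6.32% lower of all genes), with summed levels of 1239 to 1644 scaled CPM in d35 libraries and 869 to 1109 in naive libraries. At d15 1 was higher and 2 lower than in naive macrophages (2.37% and 2.00% of all genes), with sums of 915 and 957. At d35 against d15, 8 of the 12 were higher and none lower, beside 4.59% and 2.80% of all genes. All 12 had a difference above 0 in that comparison, with a list median of 1.65. Of 13 endothelial markers, 9 were lower and none higher at d35 and 3 were lower and none higher at d15 (6.32% and 2.00% of all genes lower), with sums of 214 and 274 scaled CPM at d15, 193 to 246 at d35 and 311 to 422 in naive macrophages. Of 7 tested fibroblast markers, 1 was higher and 1 lower at d35 than in naive macrophages, beside 9.86% and 6.32% of all genes. The sums were 725 and 797 scaled CPM at d15, 987 to 1728 at d35 and 739 to 931 in naive macrophages. Most of these sums was Fn1, at 1269 ± 393 scaled CPM at d35 and 774 ± 104 in naive macrophages (limma adjusted p = 0.0293). It was the only 1 of the 7 with a d35 minus naive difference above 0, and the list median was -0.77. Of 4 tested B cell markers, 3 were lower at d35 and 1 at d15 than in naive macrophages, beside 6.32% and 2.00% of all genes. None was higher, with sums of 5.22 and 5.64 scaled CPM at d15, 3.78 to 6.93 at d35 and 10.4 to 15.5 in naive macrophages. No marker of these lists that the table holds was at 0 reads over a whole group, and the share of these markers in the pathway values was not tested. Neutrophil sums overlapped between the groups, at 149 and 222 scaled CPM at d15, 135 to 267 at d35 and 175 to 202 in naive macrophages. Most of these sums was Mmp8 and Csf3r, at 110 ± 5 and 68.1 ± 9.2 scaled CPM in naive macrophages. Of 5 tested neutrophil markers, 1 was higher and none lower at d35, against naive and d15 macrophages alike. Of all genes, 9.86% and 4.59% were higher in these comparisons. The list medians were 0.48 and 0.73, with 4 of the 5 above 0 each time. T and NK cell sums were below 11 scaled CPM in every library, at 4.76 and 5.06 at d15, 5.02 to 10.1 at d35 and 6.96 to 9.07 in naive macrophages, and dendritic cell sums lay between 8.63 and 12.5 scaled CPM. The summed level of 11 epithelial or tumor markers, most of it the keratin gene Krt19 and the adhesion gene Epcam, lay below the naive range in all tumor libraries, at 1250 and 1363 scaled CPM at d15, 1205 to 1337 at d35 and 1447 to 1450 in naive macrophages. The single markers did not all follow the sum. At d15 none of the 11 passed against naive, where 4.37% of all genes did, and 8 had a difference above 0. At d35 2 were higher and 1 lower than in naive macrophages, beside 9.86% and 6.32% of all genes. Against d15, 3 were higher and 1 lower at d35, beside 4.59% and 2.80% of all genes. Mitochondrial mRNA sums overlapped, at 5340 and 5483 scaled CPM at d15, 3997 to 5343 at d35 and 3510 to 5573 in naive macrophages.

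The clock is where Per1 crosses into another set of genes. Of 16 other clock genes tested, 7 were higher and 1 lower at d15 than in naive macrophages, beside 2.37% and 2.00% of all genes. At d35 1 was higher and 1 lower than in naive macrophages, beside 9.86% and 6.32%, and 1 was higher and 7 lower than at d15, beside 4.59% and 2.80%. Per2, the paralog of Per1, had 57.3 and 107.9 scaled CPM in the d15 libraries, 19.0, 30.1 and 19.3 in the d35 libraries, and 24.6, 19.0 and 14.8 in the naive libraries, with no overlap between d15 and the other groups (limma adjusted p = 0.00661 for d15 against naive). Per3 was 1.51 higher on the log2 scale at d15 than in naive macrophages (limma adjusted p = 0.0397), at 3.6 and 7.84 scaled CPM in the d15 libraries. Nr1d1, Tef, Dbp and Nr1d2 were higher at d15 than in naive macrophages by 2.99, 2.85, 2.75 and 2.48 on the log2 scale. Their limma adjusted p was 9.1e-06, 3.25e-06, 0.000107 and 3.25e-06. Under the other settings these differences were 2.33 to 3.25, 2.42 to 3.05, 1.25 to 4.93 and 2.24 to 2.58. Without d15 replicate B the call of Per2 ended (adjusted p = 0.0973), and that of Per3 ended without any one naive or d15 library (adjusted p = 0.0553 to 0.305). The hour of harvest is not stated, so group and time of day cannot be told apart.

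**Figure D5:**
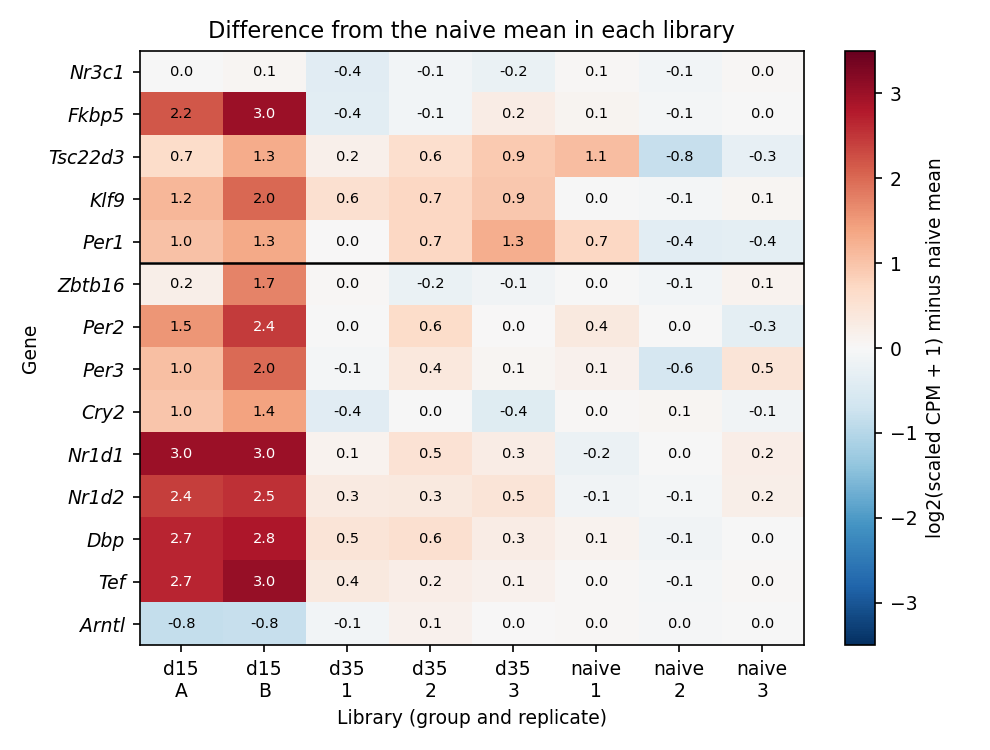
Difference of each library from the naive mean in log2(scaled CPM + 1), for the 5 genes above the line and for Zbtb16 and 8 clock genes below it. Fkbp5, Per2, Per3 and Zbtb16 are higher in d15 replicate B than in replicate A, whereas Nr1d1, at 43.2 scaled CPM in both, is level.

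Of 10 relatives of Klf9 and Tsc22d3 tested, none passed at d15 against naive, where 4.37% of all genes did, so this count says little about the family. They had a median log2 difference of 0.01 for d15 minus naive. Klf10 averaged 519 ± 19 scaled CPM at d15, 400 ± 30 at d35 and 525 ± 16 in naive macrophages, and was lower at d35 than in naive macrophages and than at d15 (limma adjusted p = 0.00739 and 0.0192). Klf3 was 0.42 higher on the log2 scale at d35 than at d15 (limma adjusted p = 0.0412). Against d15, the call of Klf10 ended without d15 replicates A or B (adjusted p = 0.0859 and 0.177) and that of Klf3 without any one library other than d35 replicate 1 (adjusted p = 0.056 to 0.203), while Klf10 against naive passed without any one library.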

How the data were processed

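Per the labels' protocols, RNA of sorted macrophages was amplified as cDNA (SMART-Seq v4 kit) and sequenced on an Illumina NextSeq instrument, with 3 naive, 2 d15 and 3 d35 libraries. Per the submitters' processing notes, STAR 2.5, genome build mm10 and edgeR were used. No source used here names the counting program, its annotation or its use of strand, so antisense reads cannot be told apart.

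The authors' deposited table holds a scaled signal per gene, (reads + 0.5) over a scaled library size + 1, as CPM. Tested against that form, 100% of values came out as whole reads within 0.001, with 27465745 to 39572173 reads per library. The gene with the fewest held 41 reads, so the table was already filtered. The authors' deposited comparison of d15 with naive gives p-values, a score from a likelihood-ratio test and log2 fold changes, per the file headers.

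Log2(value + 1) was fitted with limma 3.58.1 (R 4.3.3) with a trend, the group as the only term, over all 8 libraries and 11273 genes that reached a value of 1 in 2 or more libraries (residual df 5, prior df 5.717), with Benjamini-Hochberg adjustment. This log scale understates changes of low genes. The step was also run on simulated counts with known changes, and the outcome is not given here. Alternatives were other pseudocounts, filters and scalings, a length correction, fits of only the groups compared, each library left out, a replicate block, limma-voom, edgeR 4.0.16 and DESeq2 1.42.0 on the recovered reads. The alternatives for clock counts and single named genes were added after seeing the data.

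The 5 genes and all gene lists were chosen with earlier results of these data known. Named from each list are up to 6 called genes per comparison with the largest change and a mean log2 level of at least 1, the 2 highest markers of each marker list where a result turns on them, the 3 genes most like each of the 5, and Zbtb16, Dusp1, Sgk1, Hsd11b1 and Nr3c2. One gene that the rule would name is not reported here. Promoter windows and exon lengths come from RefSeq (GRCm38.p6) and GENCODE M21.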

Additional observations from a re-analysis of the deposited data

Results flagged for a closer look

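The following genes differed between the 2 tumor times in a direct test of d35 against d15 (limma, log2 difference with adjusted p under 0.05), which share the naive libraries only through the spread estimate. Of 16 clock genes tested, 7 were lower and 1 higher at d35, beside 2.80% and 4.59% of all genes. The clock genes named here were lower, with Nr1d1 at -2.70, Tef at -2.62, Dbp at -2.33, Nr1d2 at -2.11, Per2 at -1.77 and Cry2 at -1.47. Among genes that glucocorticoids are known to induce, Il7r was higher at 2.51 and Tnip1 at 0.53, and Amigo2 was lower at -0.78 and Rgs2 at -0.44. The inflammatory genes Il1b, Vcam1, Ccl4 and Icam1 were higher at 2.39, 2.29, 1.77 and 0.72. The exporter gene Abcb1a was higher at 1.25, the co-chaperone gene Fkbp4 was lower at -0.49, and the coactivator genes Ncoa1 and Ncoa3 were at -0.73 and 0.35. Of the Klf9 relatives, Klf3 was at 0.42 and Klf10 at -0.38. Of these 20 differences, 7 passed under every setting tried (Vcam1, Ccl4, Nr1d1, Tef, Dbp, Nr1d2 and Cry2). Without d15 replicate B 12 of the 20 no longer passed, and without d15 replicate A 9 did not.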

How the results depend on the processing

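The precision of every d15 value is limited by its 2 libraries. Genes called at d15 against naive numbered 493, with 12 to 1079 when one library was left out (12 without d15 replicate B, 90 with it as the only d15 library, 1079 without d35 replicate 3), 1179 with only the groups compared and 1451 with DESeq2. At d35 against naive 1824 were called, with 635 to 2294 when one library was left out (635 without naive replicate 2). At d35 against d15 833 were called, with 193 to 1052 when one library was left out (193 without d15 replicate B), 421 with only the groups compared and 1368 with DESeq2. Pathway genes called at d15 numbered 7, with 0 to 16 when one library was left out, 22 with only the groups compared and 23 with DESeq2. They numbered 18 at d35 against naive, with 11 without naive replicate 2, and 12 at d35 against d15, with 3 to 17 when one library was left out (3 without d15 replicate B). Clock genes called at d15 numbered 8, with 4 without d15 replicate B, and 2 at d35 against naive, with 0 without d35 replicate 1 and 1 without naive replicates 1 or 2, d15 replicates A or B or d35 replicate 3, with only the groups compared, with scaling to the table total and with quantile normalization. The log2 difference of Fkbp5 at d15 was 2.16 to 2.99 and that of Klf9 1.15 to 2.02 when one library was left out, and Klf9 at d35 against d15 was -1.29 to -0.42. The d35 difference of Bag1 became -0.0009 with length correction, and the cause was not tested. Of the d15 calls named, 4 of 13 passed under every setting (Nr1d1, Tef, Dbp and Nr1d2), and of those of d35 against naive 10 of 19. Same-numbered naive and d35 libraries deviated together with r between -0.05 and 0.15, so the numbers were not taken as pairs. With the replicate block 1460 genes and 13 pathway genes were called at d35 against naive, and Hspa8, Bag1, Tgfbr3 and Nr1d2 no longer passed. Of the naive libraries, 1 of 3 correlated best with its own number.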
